A study of Saccharomyces cerevisiae with 22 samples.

Results

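The Ty frames are the reading frames of the Ty retrotransposons of budding yeast (Saccharomyces cerevisiae), annotated in the S288C reference genome as a Gag protein (TYA) or as a Gag-Pol fusion protein (TYB read together with TYA). Rows were taken by these annotated products from the identifiers of the deposited tables, which gave 91 rows of 18222 features of total RNA, 45 for Gag and 46 for Gag-Pol. Of the 91, 0 are among the entries of the polyA tables used here, so the levels of Ty frames in polyA-selected RNA are not analysed here. The series compared 12 haploid strains of the genotype MATa his3d1 lyp1d0 can1d::STE2pr-spHIS5 whose arrays of ribosomal DNA (rDNA) hold different numbers of repeats. Total RNA, made into libraries without polyA selection, was sequenced from the strains with 72, 84, 118, 129, 147, 156, 197, 208, 224 and 237 rDNA repeats, with 1 library each. The polyA libraries came from the same 10 strains and from the strains with 104 and 166 repeats, whose polyA recovery was low by their labels. Strain names fall into the series CGY20 (118, 147 and 237 repeats), CGY24 (72, 129 and 156 repeats), CGY28 (197, 208 and 224 repeats) and CGY29 (84 repeats). Each array length is thus a single strain, and the spread between strains holds every difference between them.

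Ty elements are LTR retrotransposons, mobile elements that copy themselves through RNA. RNA polymerase II transcribes an element from one long terminal repeat to the other, and the full-length RNA serves both as the genome packaged into virus-like particles and as the message for Gag, the particle protein. Pol, which holds protease, integrase and reverse transcriptase, is made only where ribosomes slip forward by a base near the end of Gag and read on as a Gag-Pol fusion. In most elements the Gag row therefore covers the beginning of the Gag-Pol row, and reads from that stretch can be counted at either. The rows YAR010C and YAR009C of YARCTy1-1 and YJL114W and YJL113W of YJLWTy4-1 do not overlap in the annotation.

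The slip site divides the frames and is shown for the most abundant row of Ty1, Ty2 and Ty4 and for the Ty3 row whose element also has a Gag row, on the coding strand of build R64 (the same assembly as sacCer3), with the heptamer at which ribosomes slip in capitals. The Ty1 row YER138C is read at chrV:447705-447733 (minus strand), the Ty2 row YCL019W at chrIII:86381-86409 (plus), the Ty3 row YGR109W-B at chrVII:708451-708479 (plus) and the Ty4 row YHL009W-B at chrVIII:86981-87009 (plus).
YER138C: acgaccttcacCTTAGGCcaggaacttac
YCL019W: acgaacttagtCTTAGGCcagcaacagaa
YGR109W-B: gagcacgtaagGCGAGTTctaaccgatct
YHL009W-B: caaatagggaaCTTAGGCctgactcgacc

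Within a window of 61 bases centred on the annotated junction, CTTAGGC was present on the coding strand in 29 of 29 Ty1 Gag-Pol rows with such a junction, in 10 of 10 Ty2 rows and in 2 of 3 Ty4 rows. GCGAGTT was present in 2 of 2 Ty3 rows. In windows of the same length at the middle of 5911 other protein-coding genes, CTTAGGC was found in 8 (0.135%) and GCGAGTT in 9 (0.152%). The annotated junction is itself where the annotation places the slip, so these counts are no independent test of the site. The bases on both sides of the heptamer differ between the families, as the Gag-Pol frames do as a whole. YER138C and YCL019W shared 75.8% of their bases by global alignment, and the Ty3 and Ty4 rows 51.6% and 51.5% with YER138C.

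The annotation places 89 of the rows in elements, which are 46 of the 50 elements it lists. By element the rows fall into 31 Ty1, 10 Ty2, 2 Ty3 and 3 Ty4 elements, and 2 further rows (YDR170W-A and YLR035C-A) lie outside annotated elements. Both match Ty1 best, YDR170W-A with an identity of 98.2% to YBL005W-A and YLR035C-A with 99.7% to part of YER160C. Of the rows, 19 hold the same values as another row in every library, in 8 groups, and in each group the sequences are identical. The Gag rows YDR365W-A, YER137C-A, YLR157C-A and YPL257W-A are 1 such group, and only the first is named from here on. Joining rows by element and by equal values leaves 38 loci. Ty5, the family that integrates into silent chromatin, is annotated only by pseudogene rows, which are no members. Its rows YCL074W and YCL075W were at 0 reads in 10 of 10 libraries, where a count of 0 allows up to 3 reads.

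Elements sat close to tRNA genes, next to which these families are known to insert. Of the 46 elements with a row, 36 lay within 1000 bp of a tRNA gene (78.3%), against 371 of 5904 other protein-coding genes (6.28%). Both Ty3 elements started or ended within 16 and 18 bp of one, and the median distance was 193 bp for Ty1 and 266 bp for Ty2. The Ty1 element YHRCTy1-1 was the farthest of the 46, at 67832 bp.

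The total RNA libraries held 6495626 to 7934346 reads over all features and 377986 to 465645 outside the rDNA. Values are normalised counts, read counts divided by a size factor of the library. In the polyA tables the 7 markers of MATa haploids summed to 12809 to 19304 TPM and the 6 markers of MATalpha cells to 22.7 to 34.4 TPM, while LYP1 and CAN1, deleted in all strains, were at 0. HIS3, of which all strains carry the partial deletion his3d1, had 86.0 to 102.6 TPM. With 1 library per strain, p-values here rest on the spread between strains, which may be technical in part. In bulk RNA, fewer cells with a transcript and less of it per cell cannot be told apart.

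Ty1 made up most of the Ty signal and varied little as a family. The 61 Ty1 rows summed to 33959, 33917, 29459, 30115, 34380.1, 31928, 31965, 34649, 31968 and 32812 normalised counts in the strains from 72 to 237 repeats. The lowest sum was in the strain with 118 repeats and the highest in that with 208. With rows of equal values counted once, the highest was in that with 147 (33882, against 33845 with 208). Their mean was 32515 ± 1771 (SD, n = 10), a coefficient of variation of 5.45%, and counting error alone gives 0.549%.

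Ty1 rows held 7.003% (129 repeats; 95% Wilson interval 6.93 to 7.08) to 8.28% (147 repeats; 8.20 to 8.36) of all reads outside the rDNA, and all Ty rows together 7.71% to 9.02%. These intervals cover counting error only. If a read was counted at more than 1 identical copy, the shares are too high, and counting rows of equal values once lowered the mean Ty1 sum to 32076.

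Ty2, a close relative of Ty1, summed to 2511, 2578, 2571, 2894, 2979, 2632, 2509, 2319.9, 2303 and 2506 normalised counts over the same strains. The strains with 129 and 147 repeats were highest, and those with 208 and 224 repeats lowest. The mean was 2580.2 ± 216.0 (SD, n = 10).

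Ty3, a family of another class that pheromone induces, was low. Its rows summed to 70.2, 80.4, 64, 83.7, 52.8, 115.6, 75.7, 120.6, 58.4 and 109.2 normalised counts. The strains with 156, 208 and 237 repeats were the 3 highest, and they do not neighbour each other in array length. The mean was 83.1 ± 24.20 (SD, n = 10), a coefficient of variation of 29.1%, where counting error alone gives 10.9%.

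Ty4, the rarest family with a measured row, summed to 8.93 to 21.8 normalised counts with a mean of 15.4 ± 4.72 (SD, n = 10). At 10 to 23 reads per library, differences between strains were not detectable at this depth. Its coefficient of variation was 30.6%, and counting error alone gives 25.3%.

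**Figure D1:**
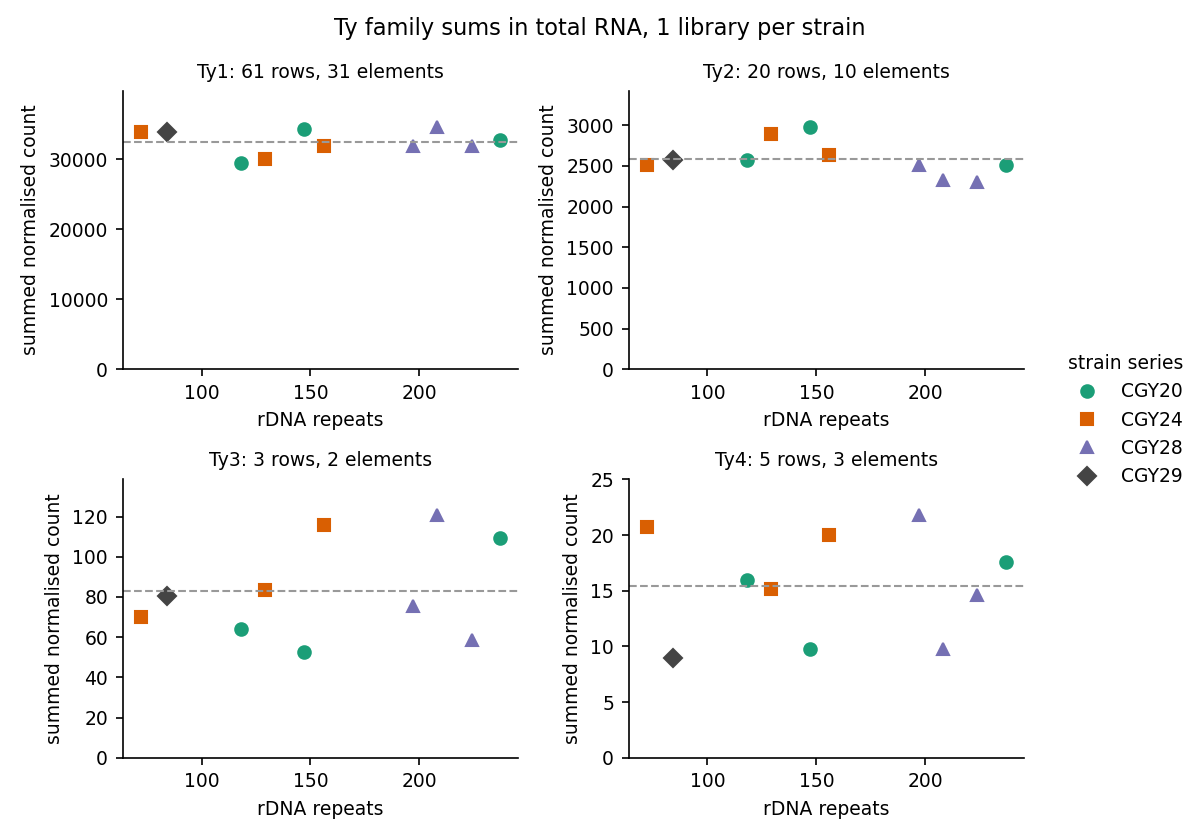
Summed normalised counts (y axis, from 0) of the rows of Ty1, Ty2, Ty3 and Ty4 in total RNA against rDNA repeat number (x axis), 1 point per strain with its strain series as colour and shape, and the mean of 10 strains as a dashed line. The Ty1 points lie between 29459 and 34649, while the Ty3 points range from 52.8 to 120.6 without an order along the x axis.

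The single rows of Ty3 and Ty4 were followed too. The Ty3 Gag-Pol row YIL082W-A had 44.1, 28.6, 35.0, 61.5, 33.2, 65.6, 49.7, 72.6, 31.3 and 71.3 normalised counts, with a mean of 49.3 ± 17.3 (SD, n = 10). YGR109W-B, that of the other Ty3 element, had 19.6 to 51.8 with a mean of 33.2. Both were among their 3 highest values in the strains with 156 and 208 repeats. In the strain with 84 repeats YGR109W-B was at its highest and YIL082W-A at its lowest.

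The Ty3 Gag row YGR109W-A had at most 3 reads in a library. Of the Ty4 rows, YHL009W-B averaged 7.41, YJL113W 4.25 and YPL060C-A 2.91 normalised counts. The Ty4 Gag rows YHL009W-A (mean 0.857) and YJL114W (0 reads in all libraries) were at or under the floor of 3 reads throughout. Per kb of frame, means were 10.96 for YIL082W-A and 7.14 for YGR109W-B, against 1.37 for YHL009W-B.

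The levels of the Ty1 elements differed far more from each other than between strains. Per kb of the longest frame, the mean normalised count ran from 11.2 for YBRWTy1-2 to 1406 for YERCTy1-1, the element of YER138C. YERCTy1-1 was the highest Ty1 element in 10 of 10 strains and alone held 19.3% to 24.6% of the Ty1 sum. The 5 elements with the highest sums held 58.7% of it, and the highest 10 held 81.1%.

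YER138C (chromosome V, 443756 to 449024, minus strand) had 7734, 8313, 6031, 6492, 8429.6, 7523, 7337, 7805, 6160.1 and 7948 normalised counts from 72 to 237 repeats. The strains with 118, 129 and 224 repeats stood below the others. The mean was 7377 ± 864 (SD, n = 10), and the frame holds no stretch of 31 bases that occurs at a single place in the genome. Another 32 of the 91 rows share that property, so their values can rest on how the authors' tool divided reads between copies. Longer stretches were not examined.

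After YERCTy1-1 came YGRWTy1-1 at 779 normalised counts per kb, YDRWTy1-5 at 557, YDRCTy1-3 at 525, YJRWTy1-2 at 398 and YLRWTy1-2 at 393. The first and the second step down were larger than the spread, with ranges that do not overlap. From YDRWTy1-5 down to YPRCTy1-4 (294), neighbours in this order overlap in range. YDRWTy1-5 was above YDRCTy1-3 in 6 of 10 strains, YDRCTy1-3 above YJRWTy1-2 in 9, YJRWTy1-2 above YLRWTy1-2 in 8, and YLRWTy1-2 above YPRCTy1-2 (366) in 6. Below YPRCTy1-4 came YOLWTy1-1 at 182, with ranges that do not overlap.

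**Figure D2:**
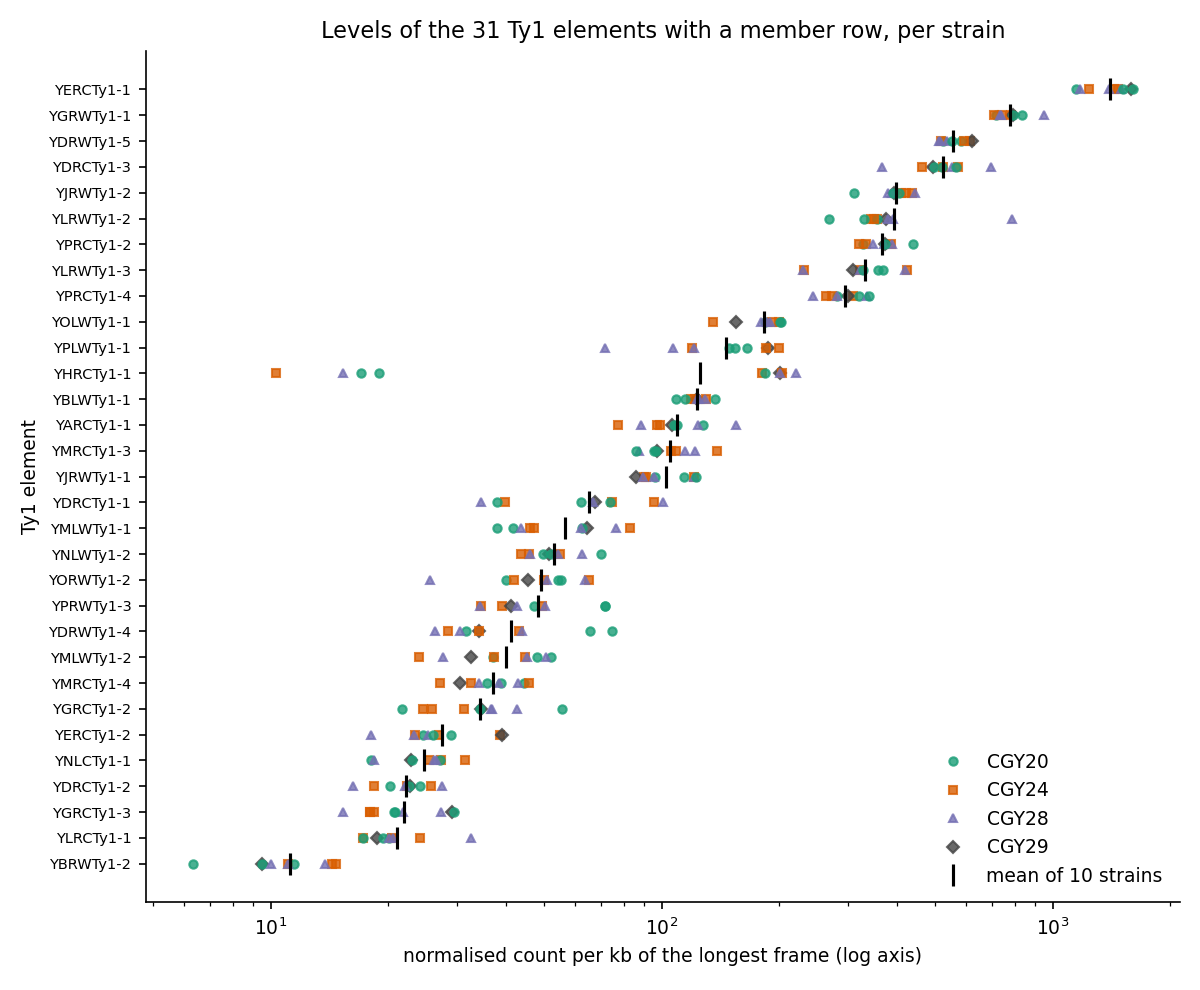
Normalised count per kb of the longest frame (x axis, log scale) for the 31 Ty1 elements with a row (y axis, ordered by mean), with 1 point per strain coloured by strain series and a bar for the mean of 10 strains. The elements span 11.2 to 1406 on average, and YHRCTy1-1 has 4 strains far below the other 6. The coefficient of variation between strains was above 20% in 16 of the 31 elements.

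Among the Ty2 elements YCLWTy2-1, that of the row YCL019W, was the highest in 10 of 10 strains, with 30.9% to 37.2% of the Ty2 sum. YCL019W had 817.8, 914, 792, 867, 955, 807, 854, 750.1, 821 and 885 normalised counts, a mean of 846 ± 61.0 (SD, n = 10). Its highest value was in the strain with 147 repeats and its lowest in that with 208. The equal-valued pair YFL002W-A and YGR161W-B came next among Gag-Pol rows, at a mean of 400.4 normalised counts each.

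Gag-Pol rows carried most of the signal. In 37 of 43 elements with both rows the Gag-Pol row had more counts per kb than the Gag row. The exceptions were the Ty1 elements YARCTy1-1, YDRCTy1-1, YGRCTy1-2, YGRCTy1-3, YGRWTy1-1 and YLRCTy1-1. In YGRWTy1-1 the Gag row YGR027W-A had 728 and the Gag-Pol row YGR027W-B 596 normalised counts per kb. In YARCTy1-1 the Gag row YAR010C had 179 and the truncated Gag-Pol row YAR009C 43.4. YAR010C is equal in sequence and values to YPR137C-A of YPRCTy1-2, so its counts cannot be given to YARCTy1-1 alone. The same holds for YGRCTy1-3 and YLRCTy1-1, whose Gag rows equal those of other elements.

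The share of the Ty1 sum that fell on Gag rows was 6.86%, 7.26%, 8.36%, 8.91%, 8.11%, 7.38%, 7.503%, 11.9%, 9.79% and 8.10% from 72 to 237 repeats. Each row of equal values enters these shares, and the shares are lower with such rows once. Counting them once lowered the Ty1 sum with 208 repeats from 34649 to 33845, and the Ty1 rows left out were all Gag rows. The strain with 208 repeats stood above the others, and 7 of 18 Ty1 Gag rows tested (rows of equal values once) had their highest value there. Of the 30 Ty1 Gag-Pol rows, 4 had their highest value in that strain. How many of all features were highest in that strain was not counted, and rows that share reads are not independent. Since the Gag stretch is shared by both rows of most elements and, for most, by other elements, the split of reads between the 2 kinds of row is uncertain.

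A single Ty1 row fell into 2 sets of strains. YHR214C-B (chromosome VIII, 543964 to 549346, minus strand), the Gag-Pol frame of YHRCTy1-1, is named because of its values and lies outside the rule for named rows. It had 956, 1071, 973, 53.4, 98.7, 1082, 1169, 80.4, 1048 and 88.8 normalised counts in the strains with 72, 84, 118, 129, 147, 156, 197, 208, 224 and 237 repeats. The strains with 129, 147, 208 and 237 repeats had 53.4 to 98.7, the other 6 had 956 to 1169, and no strain lay between.

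Low strains came from each of the 3 series with several strains, 2 from CGY20 and 1 each from CGY24 and CGY28. They had arrays of middle and long length, next to strains with the high level at similar length. The nested Gag row YHR214C-C had 1.96 to 2.93 in the 4 low strains and 10.01 to 32.3 in the other 6, so the same 4 strains were lowest there. As 2 rows of 1 element these share reads and are 1 observation.

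Among 640 features outside the rDNA with a mean of at least 100 normalised counts, the widest gap between sorted strains that left at least 2 strains on each side was 3.26 on the log2(value + 1) scale for YHR214C-B. The next widest was 0.67, for the snoRNA feature snR190, and the median over the 640 was 0.11. Of the Ty rows, YPR158C-C (0.58), YDR316W-B (0.57), YPR158W-B (0.52) and YDR098C-A (0.51) were also among the 10 widest.

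YHR214C-B stands apart in sequence as well. The frame is 5383 bp long against a median of 5269 bp for Ty1 Gag-Pol rows, a difference of 114 bp or 38 codons. Bases 513 to 626 of the frame, counted from its start codon, are followed directly by a second copy of the same 114 bases, and the match at that distance runs on to a total of 116 bases. At that distance the longest match in any of the 29 other Ty1 Gag-Pol rows was 8 bases. Of its 5353 stretches of 31 bases, 59 occur at a single place in the genome. They form 2 runs, printed here because a read that holds such a stretch whole matches the reference at this element alone. Longer stretches were not examined. The first run crosses the junction of the repeat copies at chrVIII:548691-548748 (minus strand), with the second copy in capitals.
YHR214C-B: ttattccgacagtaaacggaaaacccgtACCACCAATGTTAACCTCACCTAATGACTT
The second lies in the Pol part at chrVIII:545414-545474 (minus strand) and is set against the same stretch of YER138C at chrV:445206-445266 (minus strand), with the bases that differ in capitals.
YHR214C-B: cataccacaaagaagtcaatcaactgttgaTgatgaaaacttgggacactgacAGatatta
YER138C: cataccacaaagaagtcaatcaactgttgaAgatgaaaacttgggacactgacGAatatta

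Over the whole frame, YHR214C-B and YER138C shared 95.3% of their bases. Since the other stretches of 31 bases occur elsewhere too, the low values of 53.4 to 98.7 can hold reads of other copies, which was not tested. IMD2, an IMP dehydrogenase gene 5050 bp away on the telomere side, had 54.0, 46.4, 46.0, 35.3, 20.53, 54.5, 55.97, 42.2, 43.8 and 44.4 normalised counts. The 4 strains low in YHR214C-B had 44.4 or less and the other 6 had 43.8 or more, so the sets overlap in this gene by a narrow margin. In polyA RNA the 4 strains had 36.8 to 78.1 TPM of IMD2 and the other 6 had 69.7 to 95.9 TPM. FLO5, a flocculin gene 15345 bp away on the other side, had 11.4 to 28.4, and its highest value was in the strain with 208 repeats. The element content of these strains' genomes was not analysed here.

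**Figure D3:**
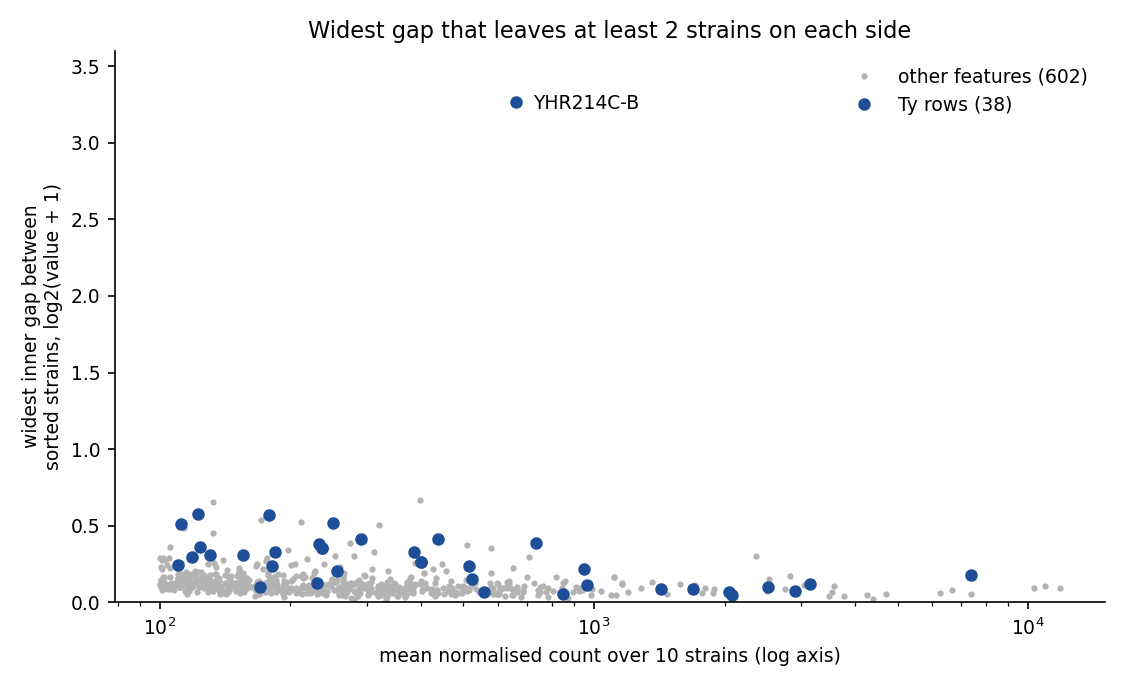
Widest gap between the sorted values of 10 strains that leaves at least 2 strains on each side (y axis, log2 of value + 1), against mean normalised count (x axis, log scale), for 640 features with a mean of at least 100, Ty rows as large points. YHR214C-B lies at 3.26, and every other feature at 0.67 or below.

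The first question of the series was whether RNA levels follow array length. Slopes of log2(value + 1) per 100 repeats were fitted with limma over 4019 features, and 75 of the 91 Ty rows passed the expression filter, 65 when rows of equal values count once. Of the 75, 0 passed an adjusted p of 0.05, where 0.0249% of all features tested did. With edgeR on recovered reads 1 Ty row passed (0.0746% of all features), and with DESeq2 1 (0.0498%). At an unadjusted p under 0.05 there were 6 of 75, 3 in each direction, where 4.68% of all features did. Their median slope was -0.01, and that of all features -0.00. With rows of equal values once, Gag rows had a median of 0.15 (22 tested, 14 positive) and Gag-Pol rows of -0.06 (43 tested, 13 positive), and of all 4019 features 2000 had a positive slope.

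YOR192C-A (chromosome XV, 708416 to 709732, minus strand), a Ty2 Gag row, had 3.599, 8.04, 4, 5.04, 2.93, 13.3, 17.6, 31.4, 17.7 and 21.3 normalised counts from 72 to 237 repeats. The 5 strains with 156 or more repeats were all above the 5 with fewer. The slope was 1.51 ± 0.32 (SE) with a limma adjusted p of 0.114. The edgeR quasi-likelihood test on recovered reads gave 1.64 with an adjusted p of 0.0180, and DESeq2 gave 1.66 with an adjusted p of 0.0351. Its Gag-Pol partner YOR192C-B, at a mean of 385 normalised counts, had a slope of the other sign, -0.24 ± 0.10 (limma adjusted p = 0.987). Summed over both rows, the element had a slope of -0.18 ± 0.09.

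YER160C (chromosome V, 492856 to 498124, minus strand), a Ty1 Gag-Pol row, had 197.0, 179.5, 123, 117, 144.7, 113, 109.9, 108, 87.6 and 128 normalised counts. Its 2 highest values were in the 2 strains with the shortest arrays and its lowest in that with 224 repeats. The slope was -0.47 ± 0.11 (limma adjusted p = 0.309). It came to -0.62 when the strain with 237 repeats was left out (limma adjusted p = 0.0345). Each strain was left out in turn, and this omission is given because the row passed there, so this p is no independent test.

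YPR158C-C (chromosome XVI, 854935 to 856257, minus strand), a Ty1 Gag row, had 75.6, 88.4, 70.0, 101.8, 128, 113, 239, 195, 192 and 23.1 normalised counts. The strain with the longest array had the lowest value, and the 3 strains of series CGY28 had the highest. The slope was 0.19 ± 0.57 (limma adjusted p = 0.987) over 10 strains. Leaving out the strain with 237 repeats gave 1.07 (limma adjusted p = 0.000418). The row was named by earlier results of these data and that strain holds its lowest value, so this p is no independent test of a trend. With strain series as a covariate the slope was -0.89, and without the strain with 224 repeats -0.03.

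The remaining rows of lowest p were named by rule and none passed, each with a limma adjusted p of 0.987. With positive slopes these were YAR010C (0.59 ± 0.25), YJR027W (0.16 ± 0.09) and YFL002W-B, the Gag row of a Ty2 element (0.48 ± 0.26). With negative slopes they were YAR009C, the truncated Gag-Pol row of the element that holds YAR010C (-0.38 ± 0.12), and YDR365W-B, one of the most abundant Ty1 rows (-0.12 ± 0.06). The 2 rows of YARCTy1-1 thus had slopes of opposite sign, but the values of YAR010C are also those of YPR137C-A in another element. The most abundant row of each family had a slope of -0.03 ± 0.09 for YER138C, -0.03 ± 0.07 for YCL019W, 0.37 ± 0.24 for YIL082W-A and 0.28 ± 0.36 for YHL009W-B. The slope of YGR109W-B was 0.06 ± 0.24 and that of YHR214C-B -0.98 ± 1.12.

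With the rows of each locus summed to 1 before the fit, an alternative chosen after seeing the data, 35 of 38 loci were tested. Of these, 0 passed and 0 had an unadjusted p under 0.05, with a median slope of -0.04. Loci joined by equal values hold rows of several elements, so this is no test of every single element. The locus of YDR365W-B, which also holds YER138C, had a mean of 11130 normalised counts.

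**Figure D4:**
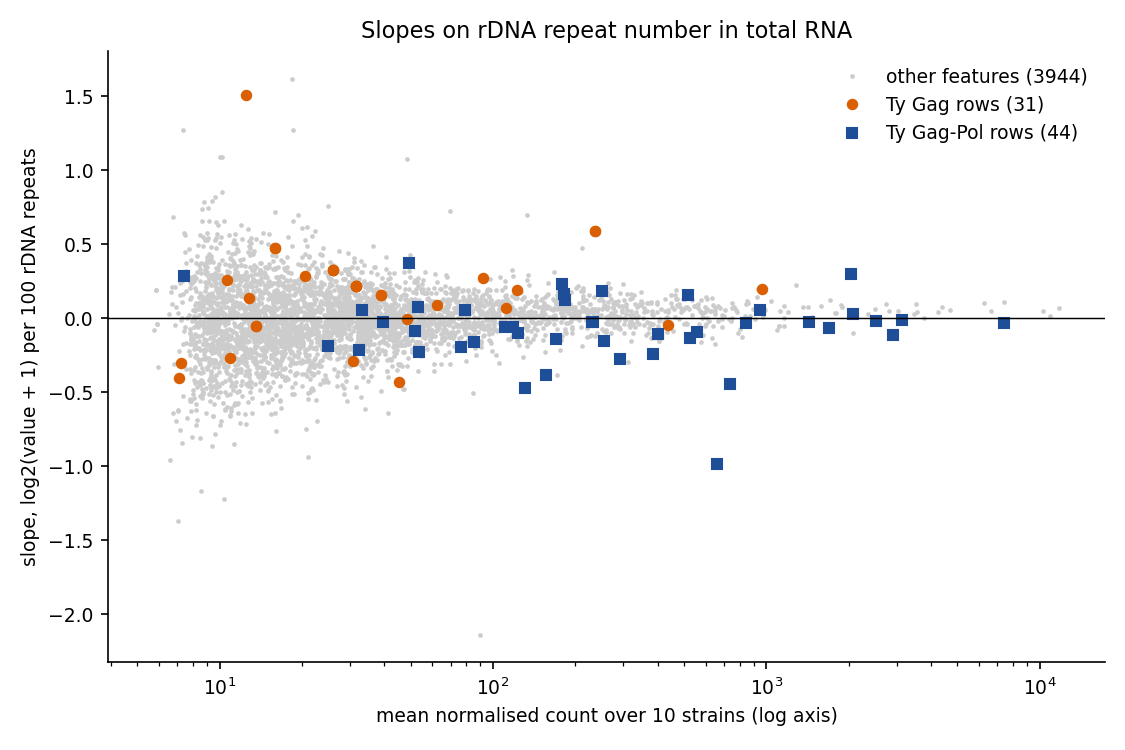
Slope of log2(value + 1) per 100 rDNA repeats (y axis) against mean normalised count (x axis, log scale) for 4019 features of total RNA, with 31 Gag rows as circles and 44 Gag-Pol rows as squares. YOR192C-A is the Gag row at 1.51, YHR214C-B the Gag-Pol row at -0.98, and the 8 rows with a mean above 1000 lie between -0.12 and 0.30.

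**Figure D5:**
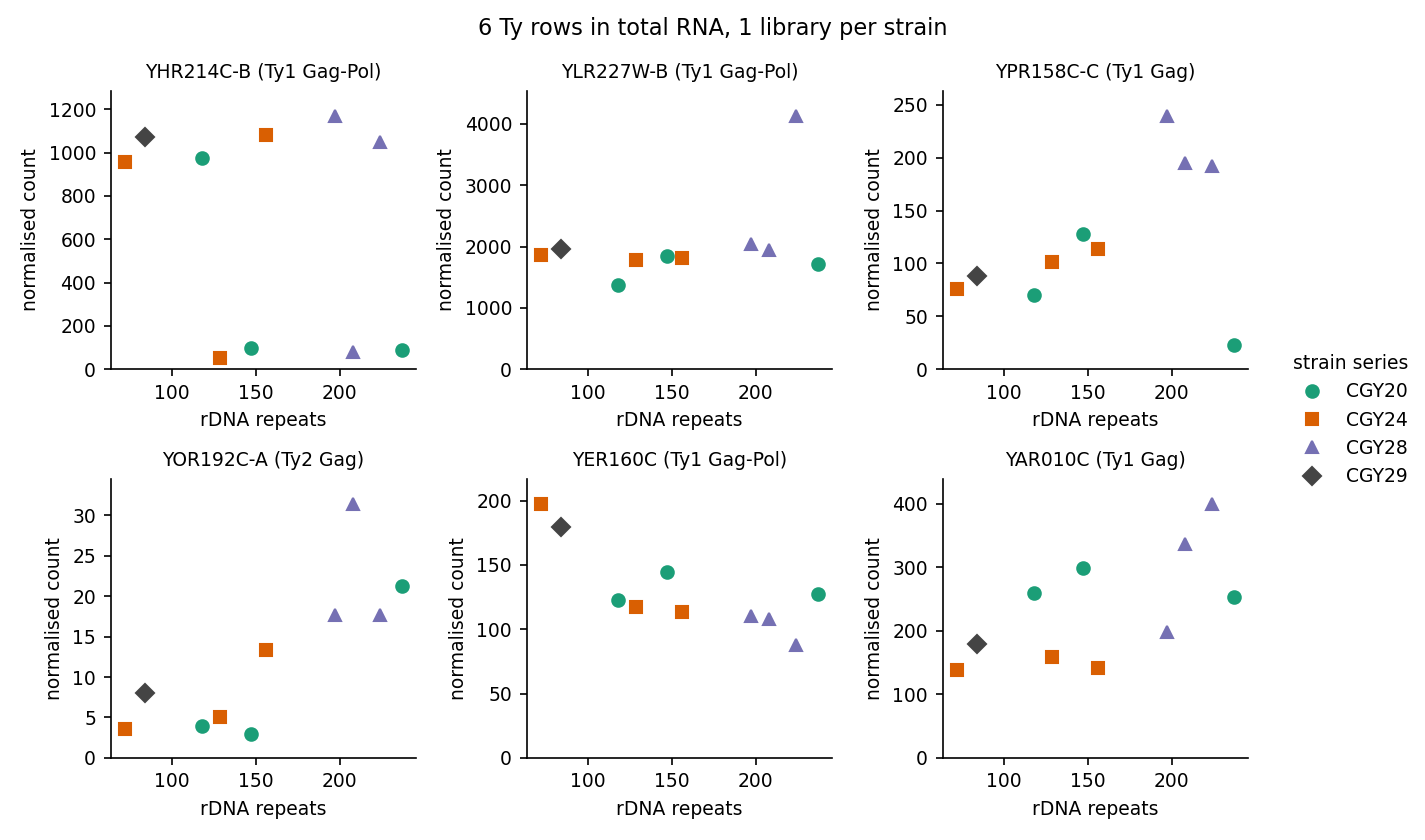
Normalised counts (y axis, from 0) of 6 Ty rows in total RNA against rDNA repeat number (x axis), with 1 point per strain and its series as colour and shape. YHR214C-B has 4 strains at 98.7 or below, YLR227W-B 1 strain at 4129, and YPR158C-C its lowest value, 23.1, in the strain with 237 repeats.

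The second question, whether Ty rows differ between strain series, was tested over the 9 strains of CGY20, CGY24 and CGY28, with 3 each. Of 75 Ty rows 0 passed an adjusted p of 0.05 by limma, and 0% of all 4019 features did. At an unadjusted p under 0.05 there were 12 of 75 Ty rows (11 of 65 with rows of equal values once), where 4.8% of all features were. The edgeR test called 0 Ty rows and DESeq2 called 3 (0.0996% of all features), which are YAR010C with its equal-valued partner YPR137C-A, and YPL257W-B.

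YAR010C (chromosome I, 164544 to 165866, minus strand), a Ty1 Gag row, had 260.0, 299 and 253.6 normalised counts in the CGY20 strains. It had 138.5, 158 and 141 in the CGY24 strains, and 198, 337 and 399 in the CGY28 strains. The CGY24 values lie below all others of these series, and those of CGY20 and CGY28 overlap. The limma adjusted p was 0.804, that of edgeR 0.60 and that of DESeq2 0.000305. The single CGY29 strain had 179.5.

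YPL257W-B, a Ty1 Gag-Pol row, averaged 802 ± 42.4 normalised counts in CGY20, 855 ± 210.7 in CGY24 and 479 ± 130.3 in CGY28 (SD, n = 3 each), with a limma adjusted p of 0.947 and a DESeq2 adjusted p of 0.0113. The other rows of lowest p each had a limma adjusted p of 0.947. YOR192C-B averaged 399 in CGY20, 435 in CGY24 and 321 in CGY28. YPR158W-B averaged 331 in CGY20, 213 in CGY24 and 219.7 in CGY28. YMR046C had means of 15.2, 39.4 and 30.7, and the Ty2 Gag row YDR261W-A of 3.86, 14.2 and 4.73 normalised counts, in the same order of series.

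Some rows stood apart in 1 or 2 strains, and these too are named because of their values. YLR227W-B (chromosome XII, 593438 to 598706, plus strand), a Ty1 Gag-Pol row, had 4129 normalised counts in the strain with 224 repeats, while the other 9 strains had 1376 to 2035. The Gag row YDR365W-A, with its 3 equal copies, had 94.1 in the strain with 208 repeats and 15.3 to 43.3 in the others. YDR316W-B, a Ty1 Gag-Pol row, had 325 and 289.7 in the strains with 147 and 237 repeats, both of series CGY20, and 118 to 195 in the others, the CGY20 strain with 118 repeats at 135 among them.

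Over 64 Ty rows with a mean of at least 20 normalised counts, the median coefficient of variation between strains was 26.6%, and over 2373 features of that level 16.3%. With rows of equal values counted once, 44 of 56 (78.6%) varied by more than 2 times the counting error of their mean. Of 2309 other features with a mean of at least 20, 232 did (10.0%). At a given coefficient of variation this measure rises with the mean. The groups share only the floor of 20 and are not matched in level, so these shares cannot be compared directly. The median coefficient of variation was 24.9% over the 17 rows of these 56 without a 31-base stretch at a single place, and 23.6% over the 39 with one. Rows with one can still share most of their sequence, as YHR214C-B does. The split therefore cannot show whether shared sequence bears on the spread. Of 65 tested rows, 15 were highest in the strain with 208 repeats, 11 in that with 147 and 9 in that with 224. In the strain with 224 repeats 11 rows were lowest. The same counts over all features were not made, so these are no result particular to Ty rows.

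Host genes that act on Ty elements were described from 6 lists. Of their members 0 passed an adjusted p of 0.05 by limma in either assay, where 0.0249% of features passed in total RNA and 0% of 5542 genes in polyA RNA. Before adjustment, p was under 0.05 for 188 features in total RNA and for 312 genes (5.63%) in polyA RNA, of the lists for GCN4 in both and for LOC1 and RPC17 in polyA RNA. Slopes are log2(value + 1) per 100 repeats, and all adjusted p given for these genes are by limma.

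Transcription factors of Ty1 had median slopes of -0.01 in total RNA and 0.00 in polyA RNA (12 tested in each). GCN4, the activator of amino acid genes that also acts on Ty1, had 240.2 to 323 normalised counts and a slope of 0.21 ± 0.08 (adjusted p = 0.987) in total RNA, and 728 to 902 TPM and 0.10 ± 0.05 (adjusted p = 0.868) in polyA RNA. Subunits of the chromatin remodeller SWI/SNF and of the coactivator SAGA had medians of -0.15 in total RNA (13 tested, 3 positive) and -0.08 in polyA RNA (14 tested, 1 positive). GCN5, the SAGA acetyltransferase, had -0.50 ± 0.26 in total RNA at 4.90 to 17.8 normalised counts, and SNF5 of SWI/SNF -0.16 ± 0.08 in polyA RNA at 6.57 to 9.17 TPM.

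Histone regulators of Ty1 had medians of -0.06 in total RNA (14 tested) and -0.05 in polyA RNA (16 tested, 1 positive), where RAD6, the ubiquitin-conjugating enzyme of histone H2B, had -0.10 ± 0.06. Restriction factors, which limit Ty1 mobility, had medians of 0.03 (17 tested) and -0.02 (21 tested). FUS3, the mating kinase that lowers Ty1 mobility, had 0.35 ± 0.19 in total RNA at 15.0 to 36.3 normalised counts. Cofactors, which Ty1 needs for its life cycle, had medians of -0.03 (17 tested) and -0.06 (19 tested, 3 positive), with LOC1 at -0.23 ± 0.10 in polyA RNA and PUF6 at -0.28 ± 0.17 in total RNA.

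RNA polymerase III factors and other integration tethers had medians of -0.06 in total RNA (19 tested) and -0.08 in polyA RNA (22 tested, 4 positive). RPC17, a polymerase III subunit, had -0.29 ± 0.12 in polyA RNA at 24.9 to 49.3 TPM, and RET1, the second largest subunit, 0.20 ± 0.12 in total RNA. The median over all genes tested was -0.02 in polyA RNA, with 2252 of 5542 slopes positive.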

How the data were processed

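Total RNA and polyA RNA of haploid yeast strains were sequenced from strand-specific libraries, per the labels' protocols. The submitters' processing notes name bcl2fastq, DESeq2, Salmon 0.8.1 and the build sacCer3, with no settings. The deposited polyA files hold TPM, which keep no depth. For total RNA, the deposited values are a normalised signal, and in each library all are whole multiples of 1 step (100% within 0.001), so reads were recovered by dividing by it. With Salmon in the notes, these whole numbers may be rounded estimates.

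Slopes and series differences were fitted with limma 3.58.1 (R 4.3.3) on log2(value + 1), which understates changes of low rows, with trended and robust moderation, over 4019 features that pass edgeR's filter on recovered reads, 45 rDNA features left out, and over 5542 polyA genes averaging 1 TPM or more. Tests were two-sided, and Benjamini-Hochberg adjustment ran over all features of a fit. Samples were grouped by the labels. edgeR 4.0.16 and DESeq2 1.42.0 on recovered reads were alternatives, as were pseudocount, filter, scaling, covariates and leaving out each strain. Each fit was tested on simulated data. Identities came from edlib. The members and lists were chosen with earlier results of these data known. Rows named are those of lowest p per fit and direction, the most abundant of each family, all of Ty3 and Ty4, 3 from earlier results, and up to 3 genes per list.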

Additional observations from a re-analysis of the deposited data

Results flagged for a closer look

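In 10 of 75 Ty rows (rows of equal values once, with over 3 reads in a library), 1 strain lay apart from the nearest other by more of the whole range than Dixon's test allows at 95%. These are 13.3% of the rows, and the same test marked 585 of 6230 other features outside the rDNA (9.39%). At a mean of at least 20 normalised counts it marked 6 of 56 Ty rows (10.7%) and 150 of 2309 other features (6.5%). For normally distributed values chance flags about 1 in 20 groups, a share that the other features here exceed. Of the 4 family sums 0 were marked. In the strain with 208 repeats 5 Gag rows were high, with YDR365W-A at 94.1 (others 15.3 to 43.3), YGR027W-A at 1400.2 (others 714 to 1073), YNL054W-A at 80.4 (others 30.1 to 54.2), YOL103W-A at 23.5 (others 9.25 to 14.1) and YDR261C-C at 16.7 normalised counts (others 7.20 to 12.2). In the strain with 224 repeats the Gag-Pol row YLR227W-B had 4129 (others 1376 to 2035) and the Gag row YHR214C-C 32.3 (others 1.96 to 17.6). In the strain with 118 repeats YDR210W-A was high at 7 (others 0.900 to 2.78) and YJR029W low at 1623 (others 1983 to 2309). In the strain with 156 repeats YBL100W-B was low at 26.7 (others 37.3 to 48.4).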

How the results depend on the processing

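No paired analysis was possible because 0 of the 91 Ty rows are among the polyA entries used here, so the series test in polyA RNA and the test of the assay difference were not run for them. Ty rows past the threshold in the trend, 0 by limma, were 2 without a filter on low values (YOR192C-A and YER160C), 1 each with edgeR and DESeq2 on recovered reads (YOR192C-A), and 0 to 2 when each strain was left out, with 1 (YOR192C-A) without the strain with 84 or 147 repeats and 2 (YER160C and YPR158C-C) without that with 237. In the series test, 0 by limma, they were 2 without a filter, 3 with DESeq2 on recovered reads, and 0 to 2 when each strain was left out, with 1 (YDR316W-B) without the strain with 118 repeats and 2 (YAR010C and its equal-valued partner) without that with 197 or 224. Genes of the host lists past the threshold were 0 under every alternative run. The mean Ty1 sum was 2737 over Gag rows and 29778 over Gag-Pol rows alone. For Gag rows alone the means of Ty2, Ty3 and Ty4 were 115, 0.609 and 0.857, and for Ty2 with rows of equal values once 2164. With strain series as a covariate slopes turned to -0.89 for YPR158C-C, 0.086 for YER138C, 0.045 for YCL019W and -0.39 for YHL009W-B. When each strain was left out, slopes ran from -0.028 to 1.07 for YPR158C-C, -0.083 to 0.039 for YER138C, -0.065 to 0.0024 for YCL019W, -0.017 to 0.59 for YHL009W-B and -0.044 to 0.31 for YGR109W-B. The cause was not tested. Depth limits Ty3 and Ty4, and shared sequence limits the assignment of reads to single Ty1 and Ty2 rows.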
